A study of Mus musculus with 4 samples.

Results

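The 10 genes of the lipid droplet surface followed here in mouse liver are the CIDE genes Cidea, Cideb and Cidec, the perilipins Plin2, Plin3, Plin4 and Plin5, the fat storage-inducing genes Fitm1 and Fitm2, and G0s2. They were chosen by name, as the array probes that carry 1 of these 10 symbols and are no control spots, which gave 13 of 39429 probes. Tests were run on probes with signal well above background in 3 or 4 channels of either treatment, and 12 of the 13 passed. Each of the 10 genes had at least 1 tested probe, among 16081 genes tested in all.

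Whole liver RNA was measured on 4 Agilent 2-colour arrays, each hybridised with 1 RNA labelled AAV_Cre and 1 RNA labelled AAV_Null. All mice, controls included, were homozygous for a floxed allele of Trib1, and they were female, of the strain given as C57B/6 and 8 to 10 weeks old. They received an adeno-associated virus with Cre recombinase, which cuts out floxed sequence (AAV_Cre, the liver-specific knockout), or a control virus (AAV_Null, called wild type), and livers were taken 1 week later, after chow and a 4-hour fast. The study's question was how Trib1, a pseudokinase that directs C/EBPα to degradation, affects lipid synthesis in liver. Arrays 1 and 2 carried AAV_Cre in Cy5, and arrays 3 and 4 carried it in Cy3. The promoter that drives Cre is not given in the sources used here, and the labels do not say whether an RNA is from 1 animal or a pool. Loss of the floxed sequence and the presence of Cre cannot be told apart in this comparison.

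Neutral lipid in a hepatocyte is stored in droplets that bud from the endoplasmic reticulum, a core of triglyceride and sterol ester under a phospholipid monolayer. Perilipins coat that monolayer and govern the access of lipases, CIDE proteins act where droplets touch and pass lipid from the smaller to the larger, and FIT proteins of the endoplasmic reticulum help new droplets form. In fatty liver several of these genes are known targets of the nuclear receptors PPARγ and PPARα, and because some coat proteins are stable only on a droplet, an RNA level is not a protein level.

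Cidec and Fitm1 were higher in RNA labelled AAV_Cre, by 2.61-fold and 1.58-fold, and the other 8 genes did not pass the test. Cidec encodes the CIDE protein of large fat-cell droplets, and Fitm1 the fat storage-inducing protein known mainly from muscle. With limma and Benjamini-Hochberg adjustment at 0.05, 2 of 10 genes were called higher and 0 lower, where 1.78% of all genes tested were called higher, 0.976% lower and 2.76% in either direction. The unadjusted p was under 0.05 for the same number, 2 of 10, against 22.6% of all genes. The median log2 ratio of the 10 genes was 0.15, beside -0.0026 over all genes, and the median absolute log2 ratio was 0.178 beside 0.0937. Cidec, Fitm1, Plin2 and Plin3 had a positive ratio on all 4 arrays, where 23.5% of all genes kept 1 sign on the arrays that measured them.

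The probe of Fitm1 is shown first, because it carries 1 of the 2 calls. With it stand the probes of Cidec and Cideb that lie closer to the 5′ end of their transcripts than the probe used for the gene, so that the second reading of each gene can be placed. Each holds 60 bases, is written 5′ to 3′ as on the array, and is placed by the array files on mm9. The coordinates of the Fitm1 probe span 427 genomic bases, 367 more than the probe holds, so its bases lie in more than 1 exon.
Fitm1, from base 223 of NM_026808, chr14:56194734-56195160, plus strand: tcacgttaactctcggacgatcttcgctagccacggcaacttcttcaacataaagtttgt
Cidec, from base 552 of NM_178373, chr6:113378116-113378175, minus strand: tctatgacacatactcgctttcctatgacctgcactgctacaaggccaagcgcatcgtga
Cideb, from base 486 of NM_009894, chr14:56373658-56373717, minus strand: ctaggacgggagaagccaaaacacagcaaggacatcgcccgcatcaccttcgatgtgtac
Read in 3 frames, the Fitm1 probe is free of stop codons in frame 2 alone, the Cidec probe in frame 3 alone, and the Cideb probe in frames 1 and 3.

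The promoters of the 2 genes are shown because both genes were called higher, and because the study concerns C/EBPα. RefSeq promoter sequences of build GRCm38.p6 were matched by symbol for 9 of the 10 genes, with 11 start sites. The 250 bases before each start were searched on both strands for 6 motifs. They were the C/EBP letters TTGCNCAA, the PPAR direct repeat (AGGNCA on either side of 1 free base), the E-box CACGTG, the sterol response element TCACNCCAC, TATAAA and CCAAT. None of the 11 promoters searched held more than 1 kind of motif, so no matches of different motifs overlapped. Capitals mark a match.
Cidec, second start site, chr6:113434765-113435014, minus strand: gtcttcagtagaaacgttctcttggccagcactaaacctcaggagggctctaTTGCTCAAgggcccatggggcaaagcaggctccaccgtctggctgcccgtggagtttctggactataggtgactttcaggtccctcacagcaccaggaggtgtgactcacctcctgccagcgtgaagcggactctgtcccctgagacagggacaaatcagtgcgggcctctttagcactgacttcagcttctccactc
Cidec, first start site, chr6:113435761-113436010, minus strand: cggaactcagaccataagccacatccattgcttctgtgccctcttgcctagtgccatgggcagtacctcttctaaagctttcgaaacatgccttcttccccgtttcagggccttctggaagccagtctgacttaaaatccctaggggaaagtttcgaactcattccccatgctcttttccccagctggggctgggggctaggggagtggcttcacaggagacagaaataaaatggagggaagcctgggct
Fitm1, chr14:55575424-55575673, plus strand: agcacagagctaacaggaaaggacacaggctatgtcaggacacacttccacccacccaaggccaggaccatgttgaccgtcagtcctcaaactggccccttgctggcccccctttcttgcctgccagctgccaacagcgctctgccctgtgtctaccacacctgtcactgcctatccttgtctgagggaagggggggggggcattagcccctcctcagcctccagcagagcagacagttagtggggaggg
The second Cidec start site had the C/EBP letters as TTGCTCAA, 198 bases before the start. Of 32851 promoters of the same length, 2.61% held TTGCNCAA on either strand. The first Cidec site and the Fitm1 promoter held none of the 6 motifs, of which the PPAR repeat stood in 0.338% of all promoters, the E-box in 6.02%, the sterol element in 1.05%, TATAAA in 12.4% and CCAAT in 33.8%. Among the genes that did not pass the test, Plin2, Plin3, Plin4 and the first Plin5 site held CCAAT, at 73, 75 and 18 bases before the start and, in Plin5, at 224 and 62. Cideb held TATAAA at 172 bases before its start, and Fitm2, G0s2 and the second Plin5 site held no match. A match is a run of letters and not a measured binding site.

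Trib1 was measured first as a check of the labels. It was higher in RNA labelled AAV_Cre, with a log2 ratio of 0.94 ± 0.08 (SE, n = 4; adjusted p 0.0210 in limma). Which exons are floxed is not in the labels, so the probe may lie outside them. The cause of the higher value was not tested. An exchange of labels between the treatments, which would reverse every direction given here, was not tested either. Directions here are those of the labels. Cebpa, whose product Trib1 marks for degradation, was lower by the same test, at -0.59 ± 0.06 (SE, n = 4) and an adjusted p of 0.0298. Both calls were lost without any 1 array, at adjusted p of 0.0730 to 0.127 for Trib1 and 0.0724 to 0.210 for Cebpa in limma, with the direction kept. With 1 array left out, 0 to 37 of all genes were called, so such a loss is not particular to these 2 genes. Between 51.0% and 58.7% of spots were well above background in a channel and 0 were saturated. Across genes, which are not independent replicates, the log2 ratios of arrays 1 and 2 correlated at 0.66, those of arrays 3 and 4 at 0.49, and those of arrays with opposite dyes at 0.067 to 0.19, so the arrays fall into 2 pairs. A dye effect was fitted for every probe. It takes up any difference between the pairs, and the p-values measure the spread within a pair, which may be technical. The hepatocyte list had all 15 of its markers measured.

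Cidec gave the largest ratio of the 10 genes. Its level on the normalised log2 intensity scale was 10.13, 10.65, 10.07 and 10.05 in RNA labelled AAV_Cre on arrays 1 to 4, and 8.95, 8.92, 8.74 and 8.75 in RNA labelled AAV_Null on the same arrays. All AAV_Cre channels were above all AAV_Null channels, and the AAV_Cre level of array 2 stood above the other three. The array-wise difference was 2.28-, 3.32-, 2.52- and 2.45-fold.

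The fitted Cidec log2 ratio was 1.39 ± 0.10 (SE, n = 4 arrays; 95% interval 1.12 to 1.65) at an adjusted p of 0.0169 in limma. It ranked 26 among 16081 genes by log2 ratio. The mean level was 10.2 ± 0.284 (SD, n = 4) against 8.84 ± 0.108, so the difference was several times the spread of either treatment. The array ratios of both dye orientations were alike, with a fitted dye effect of 0.072 on the log2 scale. The call did not hold with 3 arrays: without array 1, 2, 3 or 4 the log2 ratio was 1.52, 1.25, 1.38 or 1.395, at adjusted p of 0.0590, 0.0896, 0.0693 and 0.0720 in limma. In the same fits 13, 0, 37 and 0 of all genes were called, so the loss is not particular to Cidec. The authors' deposited table had 1.33, 1.89, 1.51 and 1.45 for this probe, in the same direction on every array.

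This value comes from 1 of 2 Cidec probes, at chr6:113374630-113374689 on the minus strand (mm9), from base 1642 of the transcript. The second probe, whose sequence is given above, was well above background in 1 of 4 AAV_Cre channels and 0 of 4 AAV_Null channels, and was not tested. Its log2 ratios were 0.0017, 0.12, 0.21 and 0.78 on arrays 1 to 4. They are ratios of signals not well above background, so no fold is given for it, and the 2 Cidec probes cannot be compared in size.

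**Figure D1:**
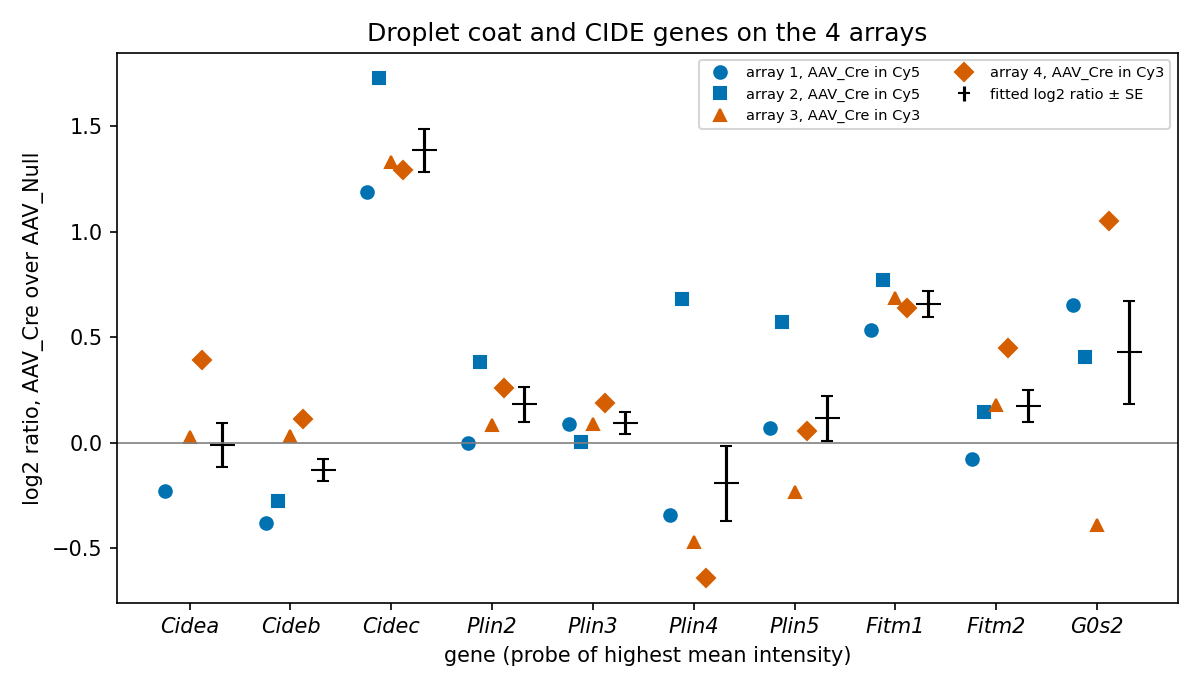
Log2 ratio of AAV_Cre over AAV_Null (vertical axis) for the 10 genes (horizontal axis), with 1 symbol for each of the 4 arrays and the fitted log2 ratio ± SE in black. The 4 Cidec ratios lie between 1.19 and 1.73 and the 4 Fitm1 ratios between 0.53 and 0.77, whereas Plin4, Plin5 and G0s2 have arrays on both sides of 0 and Cidea has no value on array 2.

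Cidea and Cideb, the other CIDE genes, did not pass the test. Cidea, known from brown fat and from fatty liver, was dim, and 3 of 4 channels of each treatment were above background. Its probe lies on chromosome 18, 67527351 to 67527410 (mm9), and its spot on array 2 was marked as an outlier and left out. Of the arrays used, only array 1 had both channels well above background. AAV_Null on array 3 and AAV_Cre on array 4 were not, so the fit rests in part on signals not well above background. The AAV_Cre levels on arrays 1, 3 and 4 were 6.85, 7.14 and 7.05, against 7.07, 7.12 and 6.66 in AAV_Null. The levels of the 2 treatments overlapped and the arrays differed in sign. The fit gave -0.01 ± 0.11 (SE, n = 3; 95% interval -0.32 to 0.30) at an adjusted p of 0.965 in limma. The sign turned in 5 other ways of processing.

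Cideb, the CIDE gene of hepatocytes with a part in the lipidation of very low density lipoprotein, was bright on every array. Its representative probe, at chr14:56372942-56373001 (mm9) from base 1063, read 14.36, 14.82, 14.71 and 14.85 in AAV_Cre and 14.74, 15.10, 14.67 and 14.74 in AAV_Null. The treatments overlapped, and the sign followed the dyes, with log2 ratios of -0.38 and -0.28 where AAV_Cre was in Cy5 and 0.034 and 0.11 where it was in Cy3. The fit gave a log2 ratio of -0.13 ± 0.053 (SE, n = 4; interval -0.27 to 0.011), adjusted p 0.25 in limma, beside a dye effect of -0.20 at an unadjusted p of 0.0142. The second Cideb probe, from base 486, had ratios of 0.049, 0.024, -0.15 and 0.0001 and a fitted value of -0.018 ± 0.054 (SE, n = 4; adjusted p 0.873 over all probes in limma). Neither probe passed the test. Cideb overlaps Nop9 and Ltb4r2 in the annotation, and Nop9 had a log2 ratio of -0.063.

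**Figure D2:**
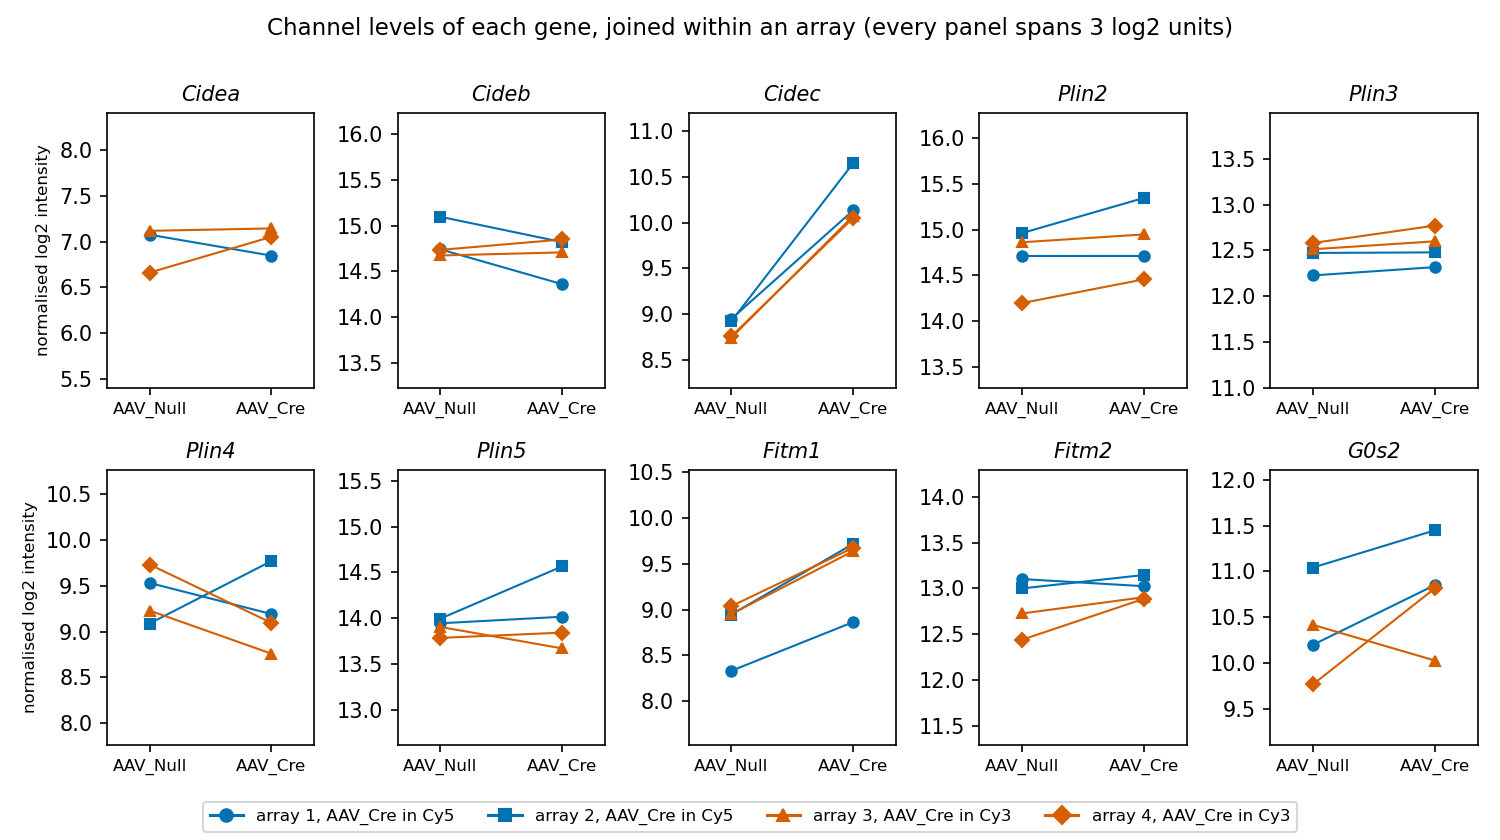
Normalised log2 intensity (vertical axis) of each gene in the AAV_Null and AAV_Cre channels, with a line for each array and 1 panel per gene, all panels spanning the same number of log2 units. Every Cidec line rises and its AAV_Cre points lie above all AAV_Null points. Every Fitm1 line rises too, but array 1 is lower than the rest in both channels, so its treatments overlap across arrays.

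Fitm1 was the second gene to pass. Its AAV_Cre levels were 8.86, 9.72, 9.64 and 9.68 on arrays 1 to 4 and its AAV_Null levels 8.33, 8.95, 8.95 and 9.04, in normalised log2 intensity. Array 1 was the lowest in both channels, which makes the treatments overlap across arrays, while within each array AAV_Cre was the higher. The array-wise difference was 1.45-, 1.71-, 1.61- and 1.56-fold.

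The fitted Fitm1 log2 ratio was 0.66 ± 0.063 (SE, n = 4; interval 0.49 to 0.82) (adjusted p 0.0233 in limma), with rank 177 of 16081 by log2 ratio. Its ratios were close from array to array, with an SD of 0.1002, and 17.4% of all genes had a smaller one. Without array 1, 2, 3 or 4 the log2 ratio was 0.72, 0.60, 0.65 or 0.67 and the call was lost each time, at adjusted p of 0.118, 0.175, 0.0821 and 0.0864 in limma. Of all genes, 0 to 37 were called in these fits, so this loss too is not particular to the gene. The authors' deposited table had 0.70, 0.83, 0.68 and 0.71 for this probe.

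Fitm2, the family member of most tissues including liver, did not pass. The brighter of its 2 probes, at chr2:163292132-163292191 (mm9) and assigned to an Ensembl transcript, had log2 ratios of -0.078, 0.15, 0.18 and 0.45. Array 1 stood below 0 and array 4 highest. The fit gave 0.17 ± 0.075 (SE, n = 4; interval -0.024 to 0.37) at an adjusted p of 0.265 in limma. The probe of the RefSeq transcript, at chr2:163294444-163294503, had 0.077, 0.071, 0.32 and 0.28, all above 0. Its fitted value was 0.19 ± 0.049 (SE, n = 4; interval 0.061 to 0.32), with an unadjusted p of 0.0133 and an adjusted p over probes of 0.128 in limma. The 2 Fitm2 probes gave nearly the same size, and neither passed.

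None of the 4 perilipins passed the test. Plin2, the main coat of liver droplets, was bright, at 14.71, 15.35, 14.95 and 14.46 in AAV_Cre and 14.71, 14.96, 14.86 and 14.20 in AAV_Null. The arrays differed more from one another than the treatments did, and the log2 ratios were 0.00033, 0.38, 0.086 and 0.26. The Plin2 fit (probe at chr4:86302847-86302906) gave 0.18 ± 0.084 (SE, n = 4; interval -0.039 to 0.40), adjusted p 0.287 in limma. A rise of up to 0.40 on the log2 scale lies within that interval.

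Plin3, a cytosolic perilipin that moves onto new droplets, was the steadiest of the 10 genes. Its levels were 12.32, 12.48, 12.60 and 12.77 in AAV_Cre and 12.23, 12.47, 12.51 and 12.58 in AAV_Null, with overlap, and its ratios were 0.091, 0.0062, 0.087 and 0.19. The SD over arrays was 0.0754, and 9.67% of all genes had a smaller one. The Plin3 fit (probe at chr17:56418429-56418488) gave 0.094 ± 0.053 (SE, n = 4; interval -0.046 to 0.23) at an adjusted p of 0.366 in limma.

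Plin4 and Plin5 are neighbours on chromosome 17, and neither passed. Plin4, a perilipin of fat and muscle, read 9.19, 9.77, 8.76 and 9.10 in AAV_Cre and 9.53, 9.09, 9.23 and 9.73 in AAV_Null. It was lower in AAV_Cre on arrays 1, 3 and 4 and higher on array 2, with log2 ratios of -0.34, 0.68, -0.47 and -0.64. The Plin4 fit (probe at chr17:56240055-56240114) gave -0.19 ± 0.18 (SE, n = 4; interval -0.66 to 0.27), adjusted p 0.566 in limma, and 0.064 without array 1. Its SD over arrays was 0.596, and 97.3% of all genes had a smaller one.

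Plin5, which tethers droplets to mitochondria and restrains their lipolysis, was bright. It read 14.02, 14.57, 13.67 and 13.84 in AAV_Cre and 13.94, 14.00, 13.90 and 13.78 in AAV_Null. Array 2 was highest in AAV_Cre, array 3 was the only one below 0, and the treatments overlapped, with log2 ratios of 0.072, 0.57, -0.23 and 0.058. The Plin5 fit (probe at chr17:56251025-56251084) gave 0.12 ± 0.11 (SE, n = 4; interval -0.16 to 0.40) at an adjusted p of 0.563 in limma. Without array 2 it was -0.0083.

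G0s2, the inhibitor of the droplet lipase that Pnpla2 encodes, varied most of the 10 genes. Its levels were 10.85, 11.45, 10.02 and 10.81 in AAV_Cre and 10.20, 11.04, 10.41 and 9.76 in AAV_Null, with overlap. Arrays 1, 2 and 4 were above 0 and array 3 below it, at log2 ratios of 0.65, 0.41, -0.39 and 1.05. The G0s2 fit (probe at chr1:195098925-195098984) gave 0.43 ± 0.24 (SE, n = 4; interval -0.21 to 1.07) at an adjusted p of 0.367 in limma. Its SD over arrays was 0.607, and 97.5% of all genes had a smaller one. Without array 3 the G0s2 log2 ratio was 0.79 (adjusted p 0.0724 in limma), and without array 4 it was 0.070 (adjusted p 0.671).

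The median log2 ratio of the 10 genes was 0.036, 0.41, 0.060 and 0.33 on arrays 1 to 4, with 6, 8, 7 and 9 of the measured genes above 0. The medians over all genes on the same arrays lay between -0.024 and 0.022. The medians of arrays 2 and 4 were thus the higher, but of the 9 genes measured on all 4 arrays only Plin2 had both of these above both others.

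The neighbouring genes of Cidec and Fitm1 on the chromosome did not pass the test where they were measured. Around Cidec, Ttll3, Rpusd3, Jagn1 and Il17re had log2 ratios of -0.081, -0.041, 0.014 and -0.17. Around Fitm1, Dcaf11, Psme1 and Emc9 had -0.051, 0.27 and 0.36. Of the tested neighbours of the 10 genes, Hsd11b1 beside G0s2, the enzyme that reactivates glucocorticoid, passed, at 0.56 and an adjusted p of 0.0347 in limma.

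The genes most like Cidec over the 4 arrays were sought by the Euclidean distance between log2 ratios, among 12154 genes. They were Cdkn1a, the cell cycle inhibitor p21, at a distance of 0.165, Gadd45a, a stress and growth arrest gene, at 0.297, and Elovl3, a fatty acid elongase, at 0.405. Cdkn1a had ratios of 1.22, 1.82, 1.44 and 1.38, highest on array 2 as for Cidec, a likeness that follows from how it was chosen. The genes nearest to Fitm1 were Med1, a Mediator subunit and coactivator of nuclear receptors, at 0.152, Wfdc2 at 0.154 and the Golgi mannosidase Man2a2 at 0.157. The measure rests on 4 arrays and the size of the ratios is part of it.

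Other genes of the droplet pathway were described from 5 lists, with the 10 genes left out. Of 86 tested, 6 were higher and 3 lower in RNA labelled AAV_Cre, or 6.98% and 3.49%, beside the 1.78% and 0.976% of all genes, and their median log2 ratio was 0.080. The same shares of all genes apply to the count of each list below, those of cell types included. With any 1 array left out, 0 or 1 of the pathway genes was called, and the 1 was Cd36, where 0 to 37 of all genes were called.

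Of 25 tested genes of other droplet proteins, 1 was higher and 0 were lower, with a median log2 ratio of 0.016. The 1 was Bscl2, which encodes seipin, the protein of droplet budding sites, at 0.50 ± 0.05 (SE, n = 4) and an adjusted p of 0.0254 in limma. Hilpda, an inhibitor of droplet lipolysis, had 0.17 and Hsd17b13, a droplet dehydrogenase of liver, had 0.010, and neither passed. Lpcat1 (0.16, not passed), counted in the median, entered the test through its AAV_Cre channels alone. Of these 3 were well above background, against 2 in AAV_Null. Plin1, the perilipin of fat cells, was not well above background in any channel.

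Of 15 tested genes of lipolysis, 2 were higher and 1 lower, with a median of 0.17. The median includes Lipe (0.27, not passed), which entered the test through its AAV_Cre channels alone. Of these 4 were well above background, against 2 in AAV_Null. Pnpla3, a droplet lipase and acyltransferase of liver, rose by 1.25 ± 0.14 (SE, n = 4; adjusted p 0.0319 in limma). Abhd5, the coactivator of the lipase that G0s2 inhibits and itself a partner of Plin5, rose by 0.60 ± 0.06 (SE, n = 4; adjusted p 0.0249). Ces3b, a carboxylesterase, was lower at -0.36 (adjusted p 0.0498). Pnpla2 itself, the lipase in question, was above background in all channels but was not among the tested genes, for want of unmarked spots on enough arrays.

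Of 16 tested genes of triglyceride synthesis, Mogat1, a monoacylglycerol acyltransferase, was higher by 0.93 ± 0.13 (SE, n = 4; adjusted p 0.0487 in limma), and 0 were lower. The list median was 0.15. The acyltransferase genes Dgat1 and Dgat2 had 0.20 and 0.32, and Gpat3 had 0.68 at an adjusted p of 0.0580, and these did not pass.

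PPARγ and its targets had 8 of 12 genes tested, 3 higher, 0 lower and a median log2 ratio of 0.46. The median covers the tested genes only, and Plin1, Adipoq and Aqp7 were not well above background in any channel. Cd36, a fatty acid transporter, rose by 1.18 ± 0.06 (SE, n = 4; adjusted p 0.0107 in limma), Pparg itself by 0.62 ± 0.06 (adjusted p 0.0225), and Mogat1 is the third. Cd36 had 1.22, 1.15, 1.06 and 1.29 on arrays 1 to 4, and Pparg had 0.63, 0.69, 0.49 and 0.68. The lipoprotein receptor gene Vldlr had 1.04 and the fatty acid binding protein gene Fabp4 had 0.30, and neither passed. The lipoprotein lipase gene Lpl had -0.38 and did not pass, with -0.13, -0.75, -0.053 and -0.60 on the arrays. PPARα targets had 24 genes tested, 0 higher and 2 lower, with a median of -0.046. The 2 were the fatty acid hydroxylase genes Cyp4a14, at -1.32 (SE 0.11, n = 3; adjusted p 0.0323 in limma), and Cyp4a10, at -0.64 (SE 0.086, n = 4; adjusted p 0.0416). Vnn1, which encodes the pantetheinase vanin, had 1.12 (adjusted p 0.0622 in limma) and Cyp4a12a, a further hydroxylase gene, had 0.64 (adjusted p 0.0558), with positive ratios on all 4 arrays, and neither passed.

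**Figure D3:**
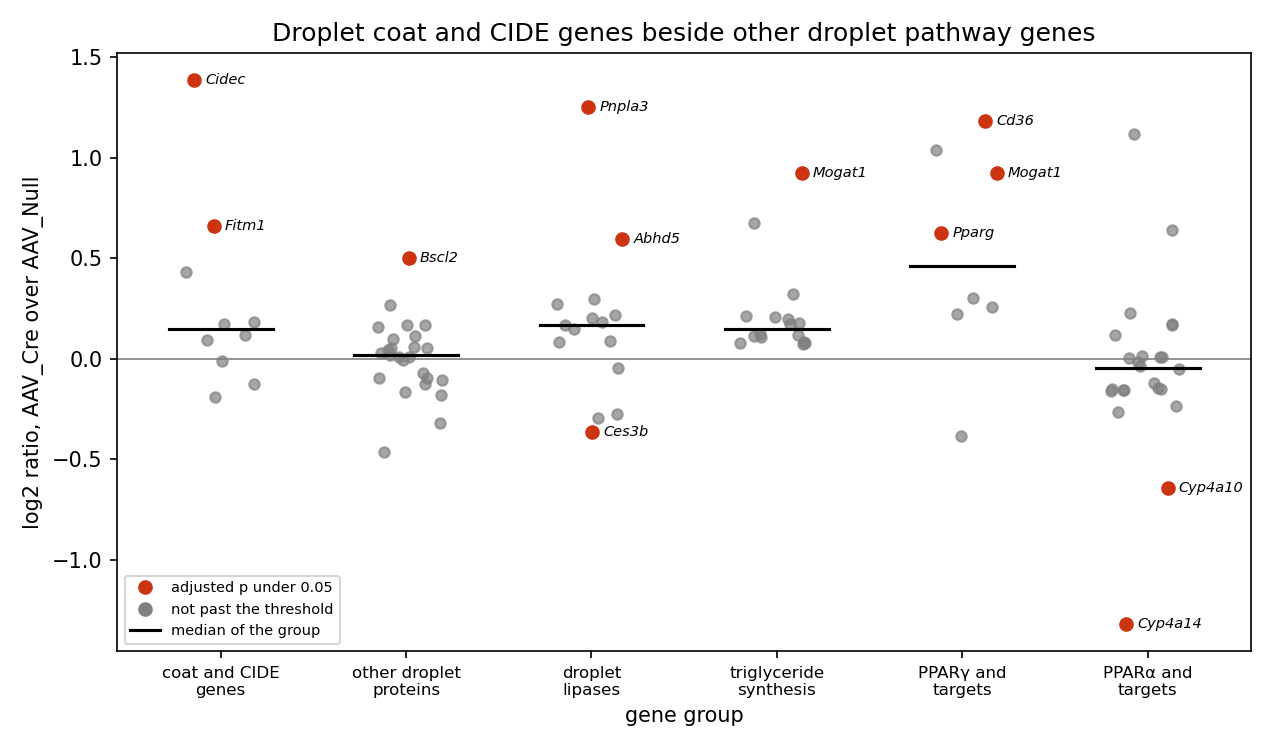
Fitted log2 ratio of AAV_Cre over AAV_Null (vertical axis) for the 10 coat and CIDE genes and 5 lists of other pathway genes (horizontal axis), with genes past the test in red and named, the rest in grey, and a bar at the median of each group. Points are spread sideways for legibility, and Mogat1 and Hilpda each belong to 2 lists. The medians run from -0.046 for PPARα targets to 0.46 for PPARγ and its targets, with the coat and CIDE genes at 0.15.

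Cidec, Plin4 and Cidea are also genes of fat cells, so markers of adipocytes were measured beside them. Of 14 such markers, 8 were tested and 2 were higher, Nrg4 at 0.98 (adjusted p 0.0319 in limma) and Thrsp at 0.76 (adjusted p 0.0259), with a list median of 0.69. All 8 had an unadjusted p under 0.05 in limma, beside 22.6% of all genes, and 7 of the 8 ratios were positive. These counts and the median include Lipe (0.27), well above background in 4 AAV_Cre but 2 AAV_Null channels. Lipe thus entered the test only through the treatment in which it was higher, so its place in these counts lends them no weight. Without any 1 array both calls were lost, at adjusted p of 0.0640 to 0.214 for Nrg4 and 0.0762 to 0.175 for Thrsp in limma, where 0 to 37 of all genes were called. Nrg4, Thrsp, Pck1 and Car3 are also expressed in liver. The defining fat cell genes Adipoq, Plin1, Lep, Cfd and Ucp1 were well above background in 0 of 8 channels, and Slc2a4 in 2 of each treatment. Fabp4 (0.30), Retn (0.75) and Adrb3 (1.01) were measured and did not pass. The summed normalised intensity of the 8 tested markers was 224197 to 278563 in AAV_Cre and 219574 to 253498 in AAV_Null. That sum rests mostly on Pck1 and Car3, with mean log2 intensities of 17.1 and 16.1, so its range does not bear on the dimmer markers. The part of fat cell RNA in the Cidec value was not tested.

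Other cell types of liver were followed in the same way, and their part in the Cidec and Fitm1 values was not tested. Of 13 macrophage markers 12 were tested and none passed, with a median of -0.24. The count at an unadjusted p under 0.05 in limma was 3 of 12, beside 22.6% of all genes. Marco had -0.59 (adjusted p 0.0919 in limma), with -1.14, -1.31, 0.38 and -0.31 on the arrays. The summed intensity of the tested macrophage markers was 41979 to 71871 in AAV_Cre and 54843 to 85302 in AAV_Null. On array 1 the sum lacks Cd68 and Itgam, which had no value there, so the sums in these ranges do not all cover the same markers. Of 11 stellate cell markers 9 were tested and Col3a1 was higher, at 0.47 (adjusted p 0.0439), with a list median of 0.21 and summed intensities of 13743 to 25843 and 14627 to 29056. Of 15 hepatocyte markers Trf was called lower, at -0.52 (adjusted p 0.0446), though its array ratios were 0.27, 0.33, -1.18 and -1.51 and split by dye orientation. The median of the hepatocyte list turned sign with the dyes as well, at 0.20, 0.19, -0.16 and -0.64 on arrays 1 to 4, and its fitted median was -0.12. The calls of Col3a1 and Trf were lost without any 1 array, at adjusted p of 0.0913 to 0.261 and 0.0724 to 0.249 in limma, where 0 to 37 of all genes were called. In bulk tissue, fewer cells of a type and less RNA per cell cannot be told apart.

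**Figure D4:**
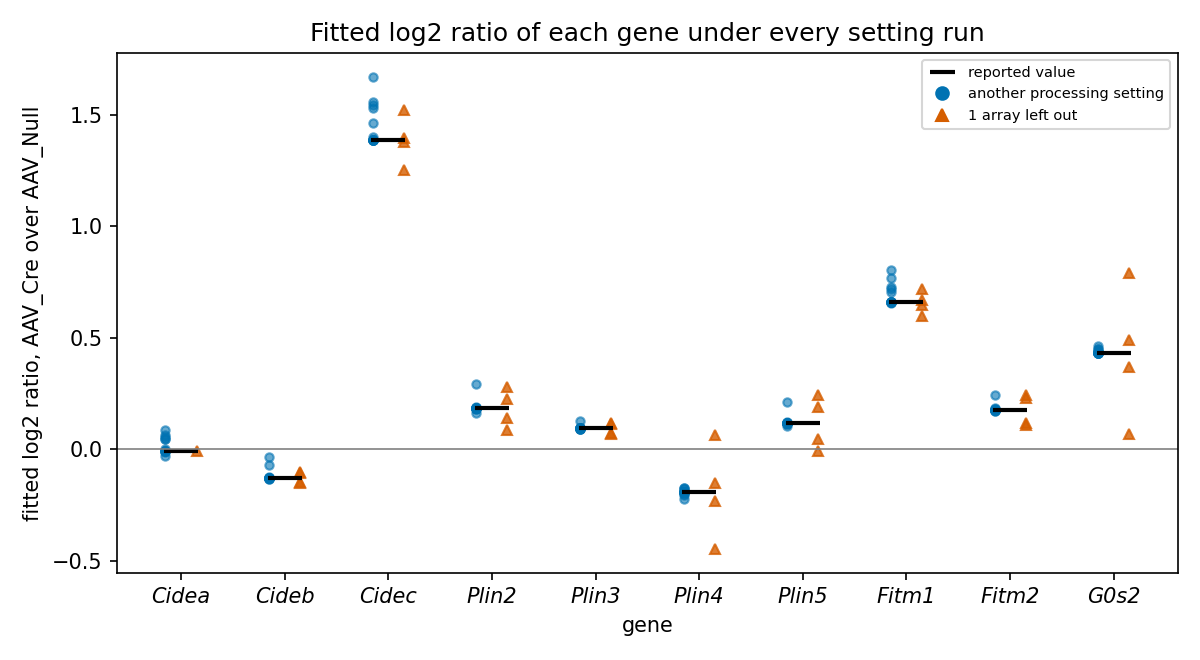
Fitted log2 ratio (vertical axis) of each of the 10 genes (horizontal axis), with the reported value as a bar, the values under other processing settings as circles and those with 1 array left out as triangles. Cidec stays between 1.25 and 1.67 and Fitm1 between 0.60 and 0.80, G0s2 ranges from 0.070 to 0.79, and Cidea, Plin4 and Plin5 cross 0.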

How the data were processed

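The deposited spot intensity and background values of each dye come from Agilent Feature Extraction 11.5.1.1 (submitters' processing notes), whose background-subtracted, dye-normalised signals give the deposited log10 ratio of Cy5 over Cy3. The authors also deposited a table of log2 values, for which the notes name limma without steps. Against the scanner's log10 ratio it had slopes of 3.34, 3.33, -3.29 and -3.39 (the log2 of 10 is 3.32), so its scale is log2 and its direction AAV_Cre over AAV_Null on each array. Its column medians were -0.022, -0.038, 0.035 and 0.041, and its normalisation is not given in the sources used here. The labels describe 2 labelling protocols, and which was used is not settled here.

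Mean spot intensities were corrected with normexp (offset 50) and loess with control spots at weight 0. Outlier-marked spots were left out unless a probe was lost on all arrays, and spots were averaged per probe. Probes well above background in at least 3 channels of a treatment, with values on at least 3 arrays in both orientations, entered lmFit and eBayes with a dye effect (limma 3.58.1, R 4.3.3, statmod 1.5.0), with 2 residual and 2.66 prior degrees of freedom. Each gene was read from the brightest of its tested probes, with Benjamini-Hochberg adjustment of p-values across 16081 genes and a threshold of 0.05. Channel levels are after loess and Aquantile. All arrays are on 1 slide, and their number limits the precision: the median SE was 0.0632, and an exact sign test over 4 arrays cannot go below a two-sided p of 0.125. The fit was tested on simulated data.

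Symbols were updated through RefSeq (GRCm38.p6), 27508 probes by accession and 404 by synonym, and probe coordinates are the array's, on mm9. The 10 genes, the lists, the alternatives and the naming rule (every probe of the 10 genes, up to 4 called genes per list by size or else the smallest p, and the 3 genes nearest to each called one) were chosen with earlier results of these data known. Uncalled list genes and chromosomal neighbours given by name were chosen after their values were seen. Sequences of probes that may lie in untranslated regions are not printed. Figures were drawn with matplotlib 3.10.9.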

Additional observations from a re-analysis of the deposited data

How the results depend on the processing

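Of 19 alternatives, Cidec and Fitm1 were called under 14, with log2 ratios over all settings of 1.25 to 1.67 and 0.60 to 0.80 and adjusted p of 3.89e-05 to 0.0900 and 0.00222 to 0.175 in limma. The 14 are not independent checks. A threshold of 0.1 keeps every gene called at 0.05. Neither log2 ratio changed without the dye effect, with outlier spots kept or with the mean of a gene's probes. With local background subtracted the count of the 10 genes called was 0, with Cidec at 1.56 and Fitm1 at 0.77, and with 1 array left out it was 0 for each array. The median log2 ratio of the 10 genes was 0.070 to 0.24 with 1 array left out. Cidea turned to 0.063 without the dye effect, 0.044 without background correction, 0.055 with the scanner's processed signals, 0.085 with outlier spots kept and 0.047 with the deposited log2 values, and it had a value under only 14 alternatives. With 1 array left out, Plin4 ranged from -0.45 to 0.064 (without array 1) and Plin5 from -0.0083 (without array 2) to 0.24, while Cideb, Plin2, Plin3, Fitm2 and G0s2 kept their direction and did not pass the threshold under any. The causes were not tested.

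The 9 pathway genes called became 23 in a separate-channel fit, 19 without background correction, 0 with background subtracted, 4 at a normexp offset of 16, 20 with an intensity trend, 19 with the deposited log2 values and 17 at a threshold of 0.1, and 0 to 1 with 1 array left out. The 444 genes called in all became 270 without the dye effect, 2529, 1403, 0 and 202 under the first 4 of those settings, 756 with median centring, 731 with the scanner's processed signals, 1291 with the intensity trend, 1371 with the deposited values and 1287 at a threshold of 0.1, and 0 to 37 with 1 array left out. Of all calls, 64.6% were higher, beside 69.8% with median centring, 56.4% with the intensity trend, 51.1% in the separate-channel fit (1292 higher, 1237 lower) and 92.3% of the 13 calls left without array 1. The reported fit is paired within arrays, and the separate-channel fit is its alternative. The array numbers name arrays of 1 group, so they give no further block beyond the array.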
